A study of Mus musculus with 13 samples.

Results

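The expression of 10 genes encoding ion channels of the vessel wall was followed across 13 mouse aortas: Kcnj11, Kcnj8, Abcc8 and Abcc9 of the ATP-sensitive potassium channel, Kcnma1 and Kcnmb1 of the large-conductance calcium-activated potassium channel, the voltage-gated potassium channel Kcna5, the L-type calcium channel Cacna1c, and the store-release channels Ryr3 and Itpr1. They were taken by name, 10 of the 54532 genes counted, and 9 of them had enough counts to be tested. Abcc8 did not. Kcnj11 was chosen by its difference between the virus groups, which was already known from these aortas to be among the largest for its spread, and all virus-group differences of the 10 genes are therefore given as descriptions.

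All 13 mice were ApoE knockout (ApoE-/-) animals that received angiotensin II (Ang II), which in this strain provokes aortic aneurysm, from a slow-release pump under the skin. Per the study's methods the infusion began at 10 weeks of age and delivered 1000 ng/kg/min for up to 28 days. In the Ad-sham group (n = 6) an empty vector adenovirus, and in the Ad-FAM3A group (n = 7) an adenovirus carrying FAM3A, was given weekly into the caudal vein, 5 times in all. The FAM3A vector used the ubiquitous EF1A promoter, so its expression was not limited to one cell type. No aorta without Ang II and no wild-type aorta was in the comparison. The sex of the sequenced mice was not given in the sources used here. Each aorta was 1 library of bulk RNA, and a whole aorta holds medial smooth muscle, endothelium, fibroblasts and the surrounding fat. In bulk RNA, fewer cells of a type and less RNA per cell cannot be told apart.

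Membrane potential sets the tone of vascular smooth muscle. Potassium channels let potassium leave the cell and hyperpolarise it, which closes the L-type calcium channel and relaxes the vessel, whereas calcium entering through that channel or released from the sarcoplasmic reticulum drives contraction. The ATP-sensitive channel is built from a pore subunit (Kcnj8 or Kcnj11) and a sulfonylurea receptor (Abcc9 or Abcc8). The pairing of Kcnj8 with Abcc9 is the vascular form, and the pairing of Kcnj11 with Abcc8 is the form of pancreatic beta cells.

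The libraries held 14481179 to 19797407 counts, so that 3 counts corresponded to 0.152 to 0.207 CPM (here counts scaled to the library total). CPM of Fam3a and Apoe were scaled in the same way, whereas those of the channel genes and markers were scaled to the normalised library size. All 9 smooth muscle markers, among them Acta2 and Myh11, and all 10 adipocyte markers were above 0 in every aorta. Fam3a itself spanned 17.7 to 29.2 CPM (median 24.6) in Ad-sham and 19.98 to 29.2 CPM (median 21.5) in Ad-FAM3A, with a log2 fold change of -0.03 (SE 0.16). Per the study's methods the vector carried the mouse Fam3a sequence, so its transcripts would be counted to this gene and raise the count, and no rise was measured in the aortas labelled Ad-FAM3A. By staining for the FLAG tag, the study reports virus-derived FAM3A protein in macrophages, fibroblasts, endothelium and smooth muscle of the aneurysm. The virus groups below are those of the labels. A pair of aortas stood apart. Ad-sham1 and Ad-FAM3A6 had the lowest smooth muscle scores, 7.77 and 7.39 against 8.67 to 10.4 in the other aortas, and the highest scores of the cardiac muscle markers, 5.71 and 5.05 against 0.66 to 3.72. Ad-FAM3A6 also had the highest B cell and T cell scores, 6.93 and 5.39, with Ad-FAM3A7 next for B cells (5.64) and Ad-sham4 next for T cells (3.25). The part of the B cell and T cell markers in the slopes below was not tested beyond leaving out aortas. For the cardiac muscle markers, the score was also added to the model. Each score is the mean log2 CPM of a marker list.

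The members of the ATP-sensitive channel lie in 2 neighbouring pairs of genes. On GRCm38, Kcnj11 (ENSMUSG00000096146) occupies chr7:46093953-46100764 on the minus strand, 3758 bases from Abcc8 (ENSMUSG00000040136) at chr7:46104523-46180033. Kcnj8 (ENSMUSG00000030247) occupies chr6:142564837-142571614 on the minus strand, 16247 bases from Abcc9 (ENSMUSG00000030249) at chr6:142587862-142702315. Exons of Abcc9, Kcnma1, Ryr3 and Itpr1 overlap exons of genes on the opposite strand in the reference annotation, and since the strand setting of the counting was not given in the sources used here, reads of such partners cannot be told apart.

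Upstream sequences were available from RefSeq (GRCm38.p6) for 6 of the 10 genes, and those of 4 are shown because these genes contrast in how closely they followed smooth muscle markers below: Kcnmb1 followed them most closely, Kcnj8 and Abcc9 form the vascular ATP-sensitive channel, and Kcna5 did not follow them. Each run holds the 250 bases before the RefSeq start, 5′ to 3′ on the gene's strand. Capitals mark CATTCC, the letters of the MCAT element, and GGGCGG, the letters of a GC box, on either strand.
Kcnmb1, chr11:33962763-33963012, plus strand: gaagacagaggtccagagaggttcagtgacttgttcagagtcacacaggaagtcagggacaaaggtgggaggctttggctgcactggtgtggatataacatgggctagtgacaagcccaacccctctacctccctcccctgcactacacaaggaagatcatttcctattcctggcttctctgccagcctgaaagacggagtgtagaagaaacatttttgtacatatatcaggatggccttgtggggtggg
Kcnj8, chr6:142571615-142571864, minus strand: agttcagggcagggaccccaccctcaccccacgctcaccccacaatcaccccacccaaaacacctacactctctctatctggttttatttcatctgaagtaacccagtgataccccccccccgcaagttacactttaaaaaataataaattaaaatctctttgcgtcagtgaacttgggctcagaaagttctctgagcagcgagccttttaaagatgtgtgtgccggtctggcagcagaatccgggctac
Abcc9, chr6:142702275-142702524, minus strand: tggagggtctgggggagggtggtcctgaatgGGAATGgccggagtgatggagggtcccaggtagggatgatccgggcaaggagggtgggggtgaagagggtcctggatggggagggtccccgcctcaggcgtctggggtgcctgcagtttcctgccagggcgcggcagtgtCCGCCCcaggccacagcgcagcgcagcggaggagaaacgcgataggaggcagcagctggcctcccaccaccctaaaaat
Kcna5, chr6:126535556-126535805, minus strand: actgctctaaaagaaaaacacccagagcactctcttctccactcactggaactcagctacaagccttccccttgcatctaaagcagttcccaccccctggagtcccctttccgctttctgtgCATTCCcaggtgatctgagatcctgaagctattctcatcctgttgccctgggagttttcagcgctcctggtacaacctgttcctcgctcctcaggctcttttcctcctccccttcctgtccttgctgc

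Abcc9 held CATTCC on its minus strand at bases 219 to 214 before the start and GGGCGG at bases 79 to 74. Kcna5 held CATTCC at bases 128 to 123. Neither motif was found in the windows of Kcnmb1 and Kcnj8. Of the windows not printed, Kcnma1 held GGGCGG at 3 positions, of which 2 overlapped, and 1 of the 3 RefSeq starts of Cacna1c held it at 6 positions, 5 of them in an overlapping run. The CArG box, the element bound by serum response factor in many contractile genes, and TATAAA were searched on both strands as well and matched none of the 8 windows. Over 32851 RefSeq promoter windows of the same length, the CArG box was found in 1.47%, CATTCC in 12.6%, GGGCGG in 32.7% and TATAAA in 12.4%. These matches describe letters in a window and were not tied to binding.

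The channel transcripts differed widely in level. On the length-scaled FPKM scale, averaged over the 13 aortas, Abcc9 (28.9) and Kcnmb1 (27.4) were highest, followed by Kcnj8 (13.4), Itpr1 (12.6), Kcna5 (5.38), Kcnma1 (2.25) and Cacna1c (2.03). Kcnj11 (0.391), Abcc8 (0.0668) and Ryr3 (0.0470) lay far below. The order held in every aorta between Kcnmb1 and Kcnj8, between Itpr1 and Kcna5, between Cacna1c and Kcnj11, and between Kcnj11 and Abcc8. Kcna5 was above Kcnma1 in 11 of 13 aortas on this scale, which divides by gene length, 2862 bases for Kcna5 and 16976 for Kcnma1. By mean CPM the order was reversed, at 15.4 for Kcna5, 38.1 for Kcnma1 and 43.0 for Cacna1c. How far the deposited lengths depart from the transcripts present was not tested. Abcc9 was above Kcnmb1 in 8 of 13 aortas, Kcnj8 above Itpr1 in 6 and Kcnma1 above Cacna1c in 7, so that these neighbours did not differ beyond their spread. Abcc8 was above Ryr3 in 10 of 13, at counts of at most 19 and 36 per aorta.

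**Figure D1:**
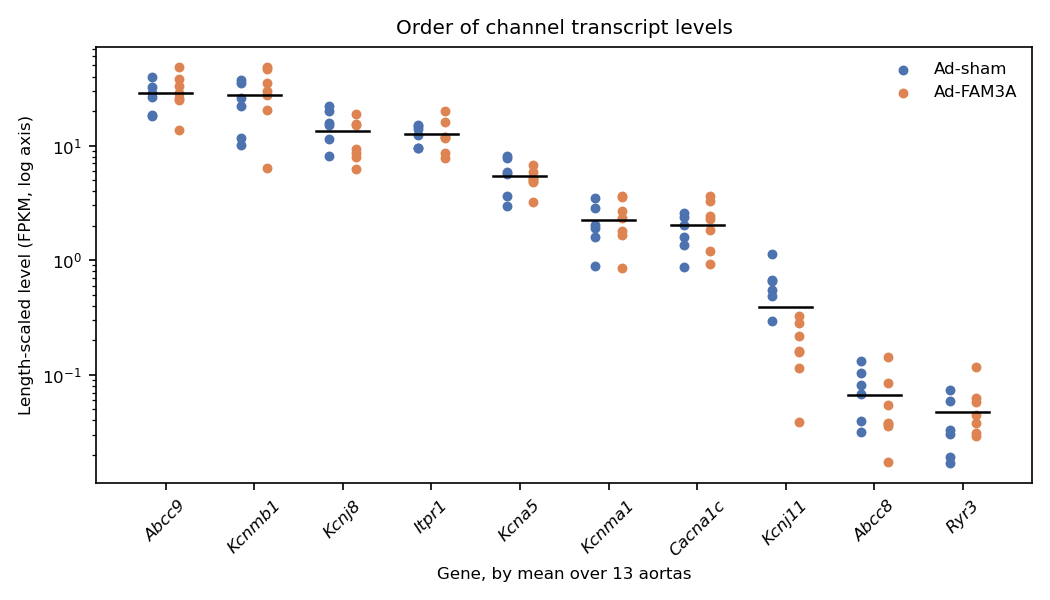
Length-scaled level (FPKM, log axis) of the 10 channel genes in each aorta, ordered by mean; points are aortas and black bars are the means over 13. Abcc9 and Kcnmb1 lie near 28.9 and 27.4 FPKM, whereas Kcnj11, Abcc8 and Ryr3 lie at or below 1.12 FPKM in every aorta.

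Within the ATP-sensitive channel the vascular subunits prevailed in every aorta. Kcnj8 exceeded Kcnj11 by 16.6-fold in Ad-sham1 to 206-fold in Ad-FAM3A3 per length, with a median of 21.9-fold in Ad-sham and 59.6-fold in Ad-FAM3A, which carries the Kcnj11 difference described next. Abcc9 exceeded Abcc8 by 95.6-fold to 1484-fold, and both highest ratios came from Ad-FAM3A3, where Kcnj11 and Abcc8 each had 2 counts. Of the large-conductance channel, the accessory subunit Kcnmb1 raises the calcium sensitivity of the pore in smooth muscle. Per length Kcnmb1 exceeded the pore subunit Kcnma1 by 6.48-fold to 19.5-fold. Their mean CPM were 115 and 38.1, and their gene lengths 4191 and 16976 bases. Of the release channels, Itpr1, the inositol trisphosphate receptor, exceeded Ryr3, a ryanodine receptor, by 67.3-fold to 827-fold.

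Kcnj11 was the channel gene whose virus groups lay farthest apart. In the Ad-sham aortas it spanned 1.09 to 4.12 CPM with a median of 2.23 (17 to 68 counts). In the Ad-FAM3A aortas it spanned 0.141 to 1.19 CPM with a median of 0.589 (2 to 19 counts). The groups overlapped through Ad-sham4 (1.09 CPM) and Ad-FAM3A4 (1.19 CPM) alone, and the other 6 Ad-FAM3A aortas lay below every Ad-sham aorta. The mean was 2.32 ± 1.02 CPM in Ad-sham (SD, n = 6) and 0.680 ± 0.361 CPM in Ad-FAM3A (SD, n = 7), a log2 fold change of -1.76 (SE 0.42). In the authors' table of group values, scaled by length, Kcnj11 stood at 0.186 for Ad-FAM3A and 0.625 for Ad-sham.

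Across all 15811 genes tested, edgeR's quasi-likelihood test called 0% (0 genes) between the virus groups after Benjamini-Hochberg adjustment, against 934 genes (5.91%) at an unadjusted p under 0.05. DESeq2 called 10 genes and limma-voom 0. Because Kcnj11 was chosen for this contrast, no test is given for it. Without 1 aorta its log2 fold change lay between -1.92 and -1.52, and it was -1.58 (SE 0.47) with the smooth muscle and adipocyte scores as covariates. The sign was fixed by the choice of the gene.

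Its beta-cell partner Abcc8 spanned 0.257 to 1.07 CPM in Ad-sham and 0.141 to 1.16 CPM in Ad-FAM3A, overlapping over nearly their whole ranges. The islet markers Ins1 and Iapp were at 0 in all 13 aortas and Ins2 in 12 of 13. The summed islet list reached 2.02 CPM in Ad-sham and 0.430 CPM in Ad-FAM3A at most, and the 2.02 CPM was Sst alone, in Ad-sham3.

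The vascular subunits did not separate the groups. Kcnj8 spanned 20.5 to 56.1 CPM with a median of 39.2 in Ad-sham, and 15.96 to 48.3 CPM with a median of 23.9 in Ad-FAM3A. Its log2 fold change was -0.40 (SE 0.29), with 5 of 7 Ad-FAM3A aortas below the Ad-sham median. Abcc9 spanned 151 to 331 CPM (median 229.8) in Ad-sham and 115 to 407 CPM (median 240.8) in Ad-FAM3A, a log2 fold change of 0.16 (SE 0.27). Both differences were of the size of the spread between aortas of a group.

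The calcium-activated and voltage-gated potassium channels overlapped between the groups as well. Kcnma1 spanned 15.01 to 58.6 CPM (median 33.4) in Ad-sham and 14.6 to 61.0 CPM (median 39.8) in Ad-FAM3A, with a log2 fold change of 0.15 (SE 0.34). Kcnmb1 spanned 42.2 to 156 CPM (median 101) in Ad-sham and 27.0 to 201 CPM (median 126) in Ad-FAM3A, with a log2 fold change of 0.37 (SE 0.41). The lowest aorta of each group was Ad-sham1 and Ad-FAM3A6 for both genes. Kcna5, which carries a delayed rectifier current, spanned 8.48 to 23.0 CPM (median 16.6) in Ad-sham and 9.12 to 19.3 CPM (median 14.6) in Ad-FAM3A, with a log2 fold change of -0.15 (SE 0.24).

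The calcium channels gave the same picture of overlap. Cacna1c, the pore of the L-type channel, spanned 18.6 to 54.8 CPM (median 38.5) in Ad-sham and 19.7 to 76.9 CPM (median 48.4) in Ad-FAM3A, with a log2 fold change of 0.30 (SE 0.32). Itpr1 spanned 175 to 279 CPM (median 241) in Ad-sham and 143 to 368 CPM (median 218) in Ad-FAM3A, with a log2 fold change of 0.0028 (SE 0.22). Ryr3 spanned 0.321 to 1.39 CPM (median 0.604) in Ad-sham and 0.553 to 2.20 CPM (median 0.847) in Ad-FAM3A, with a log2 fold change of 0.48 (SE 0.43), and its highest value was in Ad-FAM3A6. With both scores as covariates the log2 fold changes of Abcc9, Kcnma1 and Kcnmb1 turned to -0.12, -0.33 and -0.05, that of Kcna5 to 0.15 and that of Itpr1 to -0.19, and that of Cacna1c was 0.0012. Those of Kcnj8 and Ryr3 lay farther from 0 than without the scores, at -0.47 (SE 0.20) and 0.60 (SE 0.43).

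Single aortas moved these small differences. Without Ad-FAM3A6 the log2 fold change of Ryr3 was 0.17, and without Ad-sham1 it was 0.77. Without 1 aorta, that of Kcnj8 lay between -0.54 (without Ad-FAM3A2) and -0.27 (without Ad-sham5), that of Abcc9 between 0.013 (without Ad-FAM3A5) and 0.29 (without Ad-sham6), and that of Kcna5 between -0.28 (without Ad-sham6) and -0.020 (without Ad-sham2). Kcnma1 turned to -0.022 without Ad-sham1 and reached 0.34 without Ad-sham6, and Itpr1 lay between -0.14 (without Ad-FAM3A5) and 0.096 (without Ad-FAM3A2). Kcnmb1 lay between 0.21 (without Ad-sham1) and 0.55 (without Ad-FAM3A6), and Cacna1c between 0.15 (without Ad-FAM3A4) and 0.44 (without Ad-FAM3A6).

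**Figure D2:**
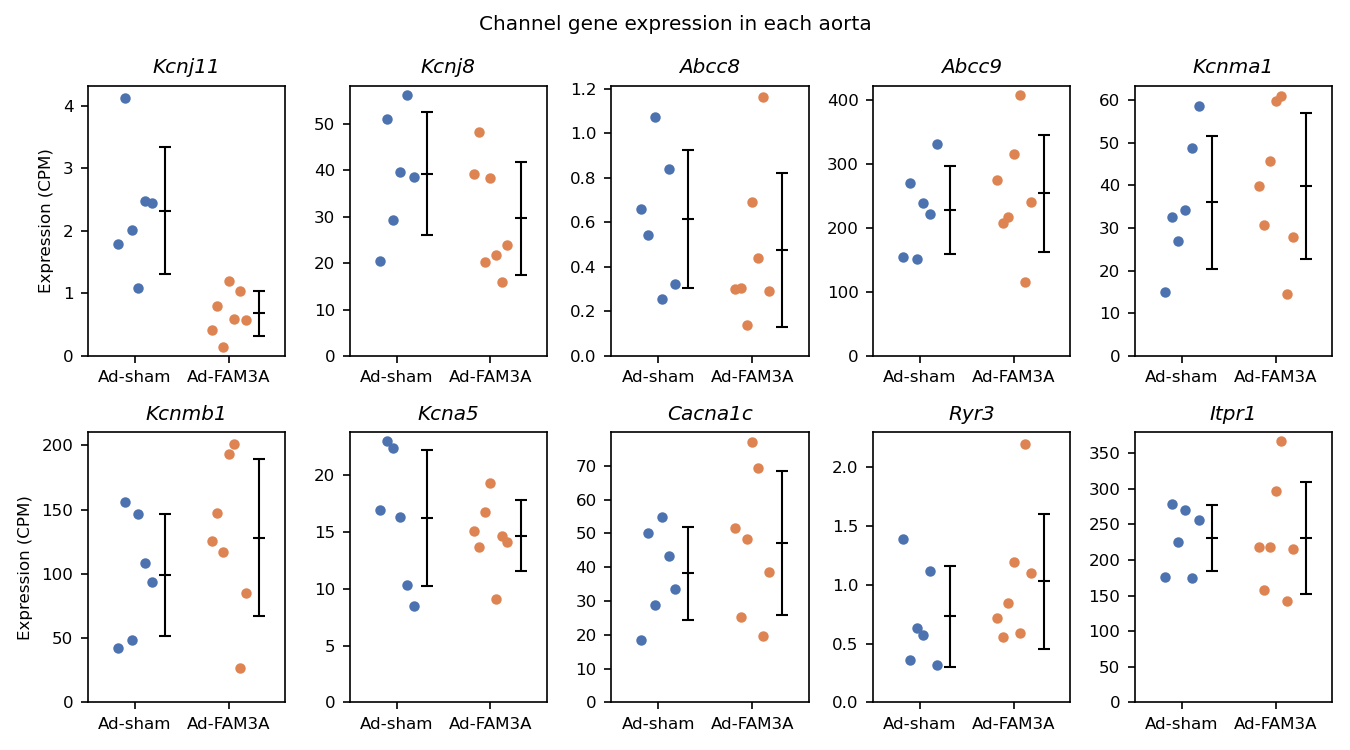
Expression (CPM) of the 10 channel genes in 6 Ad-sham and 7 Ad-FAM3A aortas; each point is an aorta, and the bar beside each group is the mean ± SD. For Kcnj11 6 of 7 Ad-FAM3A aortas lie below all Ad-sham aortas, whereas the other 9 genes overlap broadly.

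Most of the smooth muscle channels tracked the smooth muscle marker level across the aortas. The slope of each gene's log2 expression on the smooth muscle score was estimated with the virus group in the model, so that a slope of 1 means a gene in proportion to the 9 markers, none of which is a channel gene. Of the 9 genes tested, 5 rose with the score (adjusted p under 0.05 over 15811 genes), against a background of 8.01% of all genes rising, and 0 fell, against 3.97% falling. Kcnmb1 had the steepest slope, 0.96 (SE 0.10, 95% interval 0.76 to 1.17, adjusted p = 9.17e-05), an interval that includes 1. Cacna1c had a slope of 0.63 (SE 0.12, adjusted p = 0.00432) and Kcnma1 of 0.63 (SE 0.16, adjusted p = 0.0228). Both subunits of the vascular ATP-sensitive channel rose too, Kcnj8 with a slope of 0.51 (SE 0.12, adjusted p = 0.0156) and Abcc9 of 0.46 (SE 0.12, adjusted p = 0.0253). The intervals of these 4 genes ended between 0.70 and 0.95, below 1. The median slope was 0.46 over the 9 genes and -0.00018 over all genes.

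The other 4 did not pass the test. Itpr1 had a slope of 0.32 (SE 0.11, adjusted p = 0.0746), Kcnj11 of 0.09 (SE 0.23, adjusted p = 0.846) and Kcna5 of 0.04 (SE 0.14, adjusted p = 0.903). The 95% interval over all 13 aortas was -0.24 to 0.32 for Kcna5 and -0.37 to 0.55 for Kcnj11, both below 1, and within Ad-sham alone that of Kcnj11 was -0.50 to 1.22. Ryr3 had a slope of -0.51 (SE 0.19, adjusted p = 0.114).

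**Figure D3:**
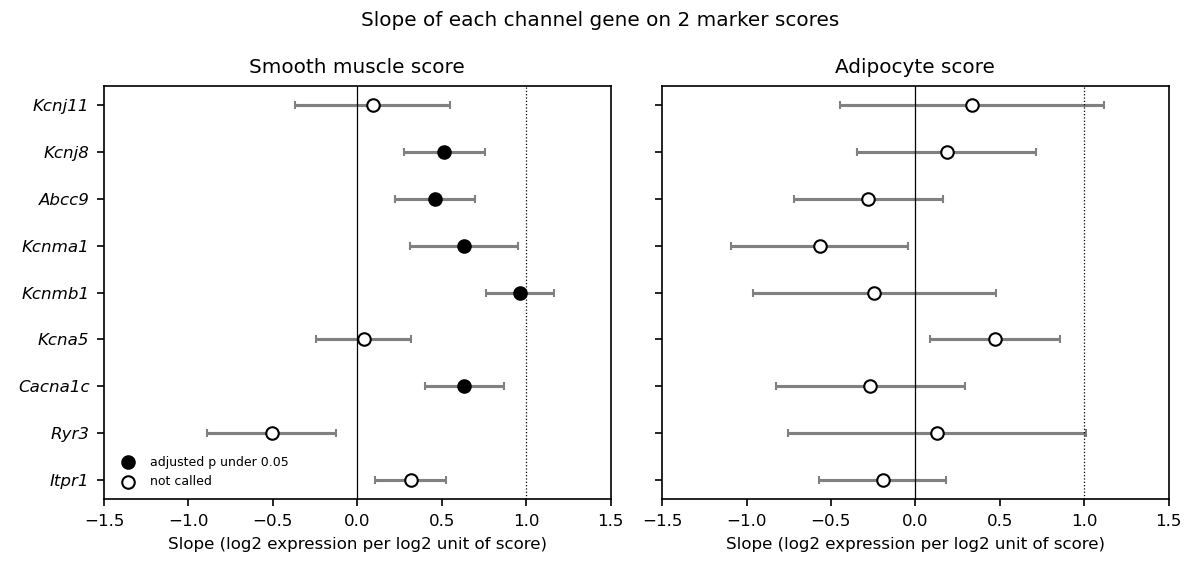
Slope of each of the 9 tested channel genes on the smooth muscle score (left) and on the adipocyte score (right), in log2 expression per log2 unit of score, with 95% intervals; filled points have an adjusted p under 0.05, and the dotted line marks a slope of 1. Kcnmb1 (0.96), Cacna1c (0.63), Kcnma1 (0.63), Kcnj8 (0.51) and Abcc9 (0.46) are filled on the left, and 0 genes are filled on the right.

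The call of Kcnmb1 held without any 1 aorta, whereas those of the other 4 genes rested in part on single aortas. Over the fits without 1 aorta the slope was 0.58 to 0.68 for Cacna1c and 0.53 to 0.70 for Kcnma1. It was 0.46 to 0.58 for Kcnj8 and 0.36 to 0.48 for Abcc9. Without Ad-FAM3A6, Kcnmb1 was the only one of the 9 genes called. Without Ad-sham1, Kcnmb1 and Cacna1c were called. Without Ad-FAM3A4, the aorta with the highest smooth muscle score, Kcnmb1, Kcnj8 and Cacna1c were called, and Ryr3 was called as falling with a slope of -0.77. Without Ad-FAM3A7, Kcnma1 was lost, and without Ad-FAM3A2, Itpr1 was called in addition, with a slope of 0.34. With Ad-sham1 and Ad-FAM3A6 both left out, an alternative added after seeing the data, Kcnmb1 had a slope of 0.77 and remained the only call among the 9, and 126 genes were called in all. With the cardiac muscle score added to the model, also chosen after seeing the data, Kcnmb1 was again the only call of the 9.

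Correlations without a model gave the same ranking at the top. Kcnmb1 correlated with the smooth muscle score with Pearson's r = 0.96 (permutation p = 1e-05, the smallest that 100000 resamples can give, adjusted p = 0.00114 over 15811 genes) and Spearman's rho = 0.96 (permutation p = 2e-05, adjusted p = 0.00355). Without the 2 aortas farthest from the median score, Ad-FAM3A6 and Ad-sham1, r was 0.88 (permutation p = 0.00034, adjusted p = 0.0401). For Cacna1c r was 0.84 (permutation p = 0.00032, adjusted p = 0.00892) and rho 0.81 (permutation p = 0.00138, adjusted p = 0.0370), and r was 0.64 without the 2 aortas (adjusted permutation p = 0.255). For Abcc9 r was 0.79 (permutation p = 0.00135, adjusted p = 0.0226) and rho 0.66 (permutation p = 0.0168, adjusted p = 0.132), and r was 0.53 without the 2 aortas (adjusted permutation p = 0.394). For Kcnma1 r was 0.79 (permutation p = 0.00146, adjusted p = 0.0236) and rho 0.68 (permutation p = 0.0131, adjusted p = 0.118), and r was 0.40 without them (adjusted permutation p = 0.568). The relations of Cacna1c, Abcc9 and Kcnma1 therefore rested in part on these 2 aortas. For Kcnj8 r was 0.67 (permutation p = 0.0127, adjusted p = 0.0905) and rho 0.55 (permutation p = 0.0554, adjusted p = 0.226), and r was 0.35 without them. The relation of Ryr3, r = -0.56 (permutation p = 0.0449, adjusted p = 0.182) and rho = -0.41 (permutation p = 0.163, adjusted p = 0.399), gave r = 0.0078 without the 2 and rested on them.

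**Figure D4:**
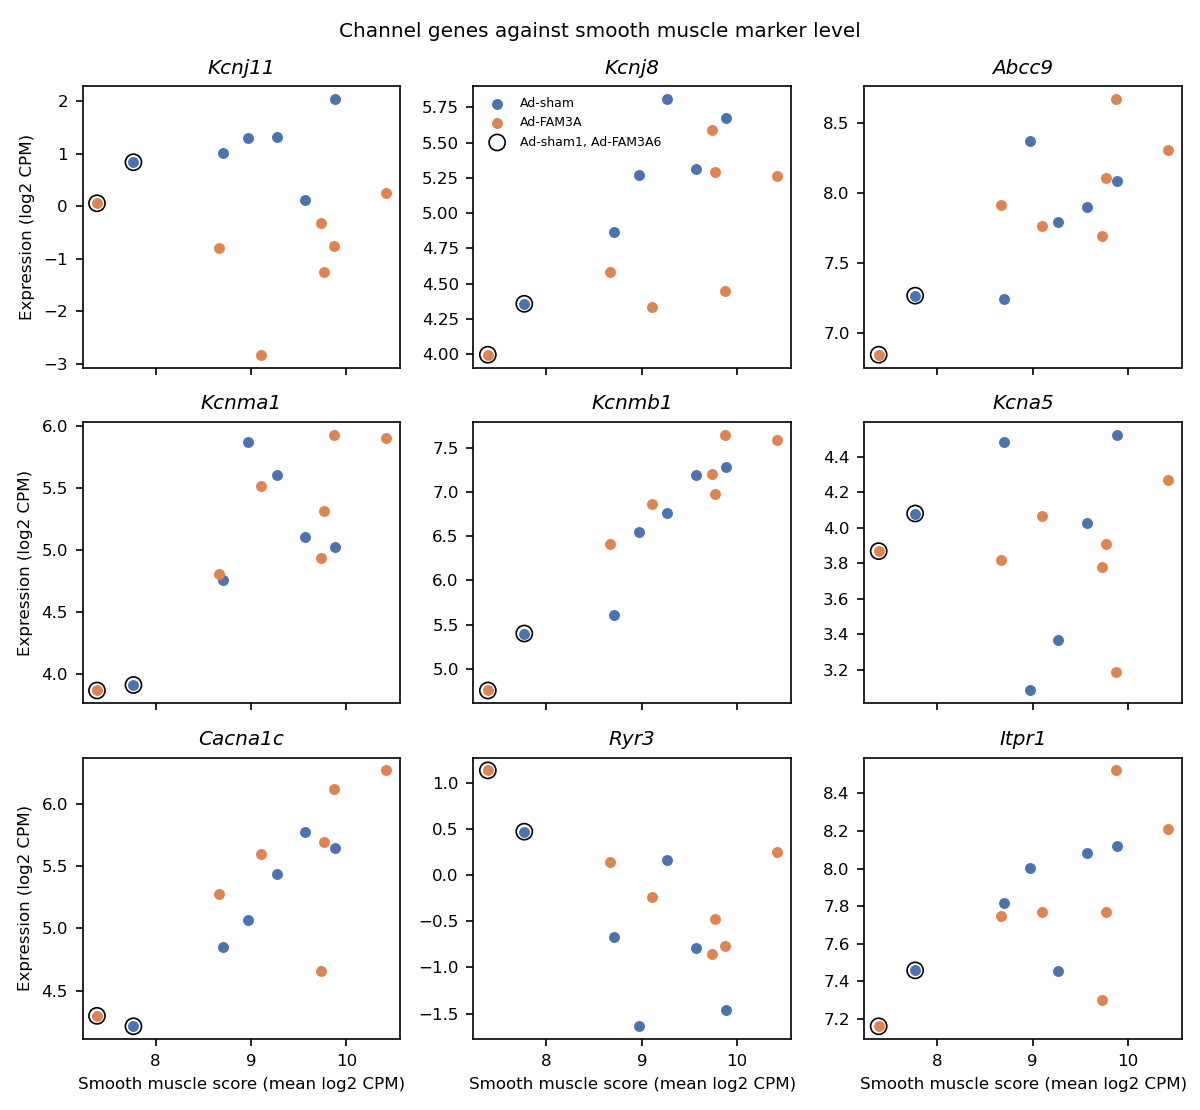
Expression (log2 CPM) of the 9 tested channel genes against the smooth muscle score (mean log2 CPM of 9 markers); points are aortas and circles mark Ad-sham1 and Ad-FAM3A6. Kcnmb1 rises along one line in both groups (r = 0.96), and Kcna5 shows no trend (r = 0.01).

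Within each virus group the slope of Kcnmb1 was 0.99 (SE 0.18, adjusted p = 0.0265) in Ad-sham and 0.95 (SE 0.13, adjusted p = 0.000924) in Ad-FAM3A. Cacna1c had a slope of 0.77 (SE 0.22, adjusted p = 0.160) in Ad-sham and 0.58 (SE 0.15, adjusted p = 0.0239) in Ad-FAM3A. The other 3 passed in neither group alone. The adjusted p in Ad-sham and Ad-FAM3A was 0.259 and 0.0710 for Kcnj8, 0.523 and 0.0552 for Abcc9, and 0.517 and 0.0523 for Kcnma1. The difference between the groups' slopes was tested for every gene, and edgeR called 0% (0 of 15811) on the smooth muscle score, with 1314 at an unadjusted p under 0.05. For Kcnmb1 the difference was -0.04 (SE 0.21) and for Cacna1c -0.19 (SE 0.25).

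None of the channel genes was called on the adipocyte score. With edgeR, 0 of 9 rose, against 1.52% of all genes rising, and 0 fell, against 0.0759% falling. DESeq2 and limma-voom called 0 of the 9 too. Kcna5 had a slope of 0.47 (SE 0.20, unadjusted p = 0.0315, adjusted p = 0.250) and Kcnma1 of -0.57 (SE 0.27, unadjusted p = 0.0543, adjusted p = 0.318). Kcnj8 had one of 0.18 (SE 0.27, adjusted p = 0.772). For Kcnj11 the slope was 0.33 (SE 0.40, adjusted p = 0.725), with an interval of -0.45 to 1.12 that includes both 0 and 1. It was 0.057 without Ad-sham2 and 0.55 without Ad-FAM3A1, and 1.70 with the replicate number as a block, and it was called in none of its 23 alternatives. Within a single virus group the estimates were less precise. Kcnj8 had an adipocyte slope of -0.23 (SE 0.31) in Ad-sham and 0.79 (SE 0.38) in Ad-FAM3A, a difference of 1.02 (SE 0.49, adjusted p = 0.999). Kcna5 had one of 0.68 (SE 0.24) in Ad-sham and 0.15 (SE 0.30) in Ad-FAM3A. The adipocyte score spanned 7.17 to 8.69 in Ad-sham and 6.82 to 8.28 in Ad-FAM3A. It did not correlate with the smooth muscle score (r = -0.10, permutation p = 0.737, rho = 0.0055, permutation p = 0.992).

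With both scores in 1 model, the 5 genes that rose with smooth muscle were again called, against 9.11% of all genes rising, with slopes of 0.45 for Abcc9 to 0.95 for Kcnmb1. Kcnma1 then had an adipocyte slope of -0.57 (SE 0.15, adjusted p = 0.0609). On the brown adipocyte score, built from Ucp1, Cidea and 6 other markers, 0 of the 9 genes were called, against 5.08% of all genes rising and 0.550% falling. Kcna5 had a brown adipocyte slope of 0.35 (SE 0.15, adjusted p = 0.223) and Kcnj11 of 0.25 (SE 0.27, adjusted p = 0.633).

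Pericytes and other mural cells are known to express Kcnj8 and Abcc9 strongly. On the score of 8 mural markers, among them Rgs5 and Pdgfrb, the genes called were the 5 that rose with smooth muscle, against 6.26% of all genes rising. The slopes were 1.91 (SE 0.35) for Kcnmb1, 1.39 (SE 0.33) for Kcnma1, 1.33 (SE 0.27) for Cacna1c, 1.11 (SE 0.26) for Kcnj8 and 0.98 (SE 0.27) for Abcc9. The mural and smooth muscle scores moved together (r = 0.93, permutation p = 3e-05, adjusted p = 0.00042 over 14 pairs of scores), so the 2 cannot be told apart here. The cardiac and smooth muscle scores moved against each other (r = -0.75, permutation p = 0.00559, adjusted p = 0.0261; rho = -0.39, permutation p = 0.189), with r = -0.17 without Ad-FAM3A6 and Ad-sham1. On the scores of endothelium, fibroblasts, cardiac and skeletal muscle, sympathetic neurons, Schwann cells, macrophages, B cells, T cells and kidney, edgeR called 0 of the 9 genes in either direction. Of all genes, 0% were called on the endothelium score, 1.13% on the fibroblast, 0.0696% on the cardiac muscle, 0.0379% on the skeletal muscle, 4.74% on the sympathetic neuron, 1.67% on the Schwann cell, 0.152% on the macrophage, 2.71% on the B cell, 4.54% on the T cell and 0.247% on the kidney score. The largest of these for Kcnj11 was on the macrophage score, -1.02 (SE 0.41, adjusted p = 0.883). The adrenal cortex list had 1 marker and the islet list 0 markers with enough counts, so that neither gave a score.

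Other channel and calcium-handling genes were read from 8 lists of 155 genes that include the 10. Of 112 tested, 20 rose and 5 fell with the smooth muscle score, beside 8.01% and 3.97% of all genes, and 5 of the 20 were among the genes above. The lists were not tested as sets, and the number falling is close to that share of all genes. Over these 112 genes the median slope was -0.10. On the adipocyte score 0 of the 112 were called by edgeR.

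Among potassium channels, 2 of 3 tested genes of the ATP-sensitive list and 2 of 8 of the calcium-activated list rose, all of them described above, and none fell. Of 32 voltage-gated potassium channel genes 4 rose and 2 fell. Among those that rose were Kcnh2 (slope 0.95, SE 0.11), the accessory subunit Kcnab1 (0.87, SE 0.13) and the transient outward channel Kcnd3 (0.74, SE 0.15). Kcna3, a channel well known in lymphocytes, fell (-1.20, SE 0.35), as did the accessory subunit Kcnab2 (-0.91, SE 0.25). The T cell score was 0.63 to 3.25 in Ad-sham and -0.06 to 5.39 in Ad-FAM3A, and its part in the slope of Kcna3 was not tested. Of 6 inward rectifiers and 7 tandem-pore channels, 0 were called by edgeR on this score. The highest in level of these were Kcnj15 (6.26 FPKM, slope 0.30, SE 0.27) and Kcnk3 (35.7 FPKM, slope -0.05, SE 0.20).

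Among voltage-gated calcium channel genes, 5 of 17 rose and 1 fell. With Cacna1c rose its beta subunit Cacnb2 (slope 0.69, SE 0.13) and its alpha2delta subunit Cacna2d1 (0.53, SE 0.15), the T-type channel Cacna1g (1.02, SE 0.25) and Cacng7 (0.55, SE 0.13), a gamma subunit that at 10.7 FPKM was the highest of its list. Cacna1e, the R-type channel, fell (-1.80, SE 0.44) at a mean of 0.151 FPKM. The sympathetic neuron score ran from -1.08 in Ad-sham4 to 7.05 in Ad-FAM3A3. It tended to fall as the smooth muscle score rose (r = -0.56, permutation p = 0.0478, adjusted p = 0.120, rho = -0.58). Its part in the slopes of Cacna1e and Kcnab2 was not tested. Of 20 genes of store release and refilling, 3 rose and 2 fell. Jph2, which ties the plasma membrane to the sarcoplasmic reticulum, had a slope of 1.17 (SE 0.09, adjusted p = 1.8e-05) at 58.7 FPKM. Mrvi1, the partner of Itpr1 in cyclic GMP signalling, had a slope of 0.88 (SE 0.11) although Itpr1 itself was not called, and Casq1, a calcium-binding protein of the reticulum, had one of 0.88 (SE 0.19). Casq2, the cardiac calsequestrin, fell (-0.98, SE 0.28), and so did the store-operated channel Orai2 (-0.67, SE 0.16). With the cardiac score in the model the slope of Casq2 was -0.01. Atp2a2, the calcium pump that refills the store and the most abundant of all 155 genes (91.9 FPKM), had a slope of 0.22 (SE 0.10, adjusted p = 0.169).

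Of 19 genes of calcium extrusion and TRP channels, 4 rose and 0 fell. These were the exchanger Slc8a2 (slope 0.96, SE 0.10), Pkd1 (0.65, SE 0.12), the cation channel Trpm4 (0.51, SE 0.10) and the pump Atp2b4 (0.44, SE 0.12). Without Ad-sham1 and Ad-FAM3A6 together, 4 of the 25 remained called, among them Kcnmb1, Jph2 and Slc8a2, whereas 9 remained without Ad-FAM3A6 alone, 16 without Ad-FAM3A4 and 18 without Ad-sham1. Kcna3, Casq2, Cacna2d1 and Atp2b4 were each called in 6 of the 13 fits that left out 1 aorta. The slope of Orai2 was -0.36 without Ad-FAM3A6 (adjusted p = 0.368), and that of Casq2 was -0.55 without Ad-sham1 (adjusted p = 0.215).

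**Figure D5:**
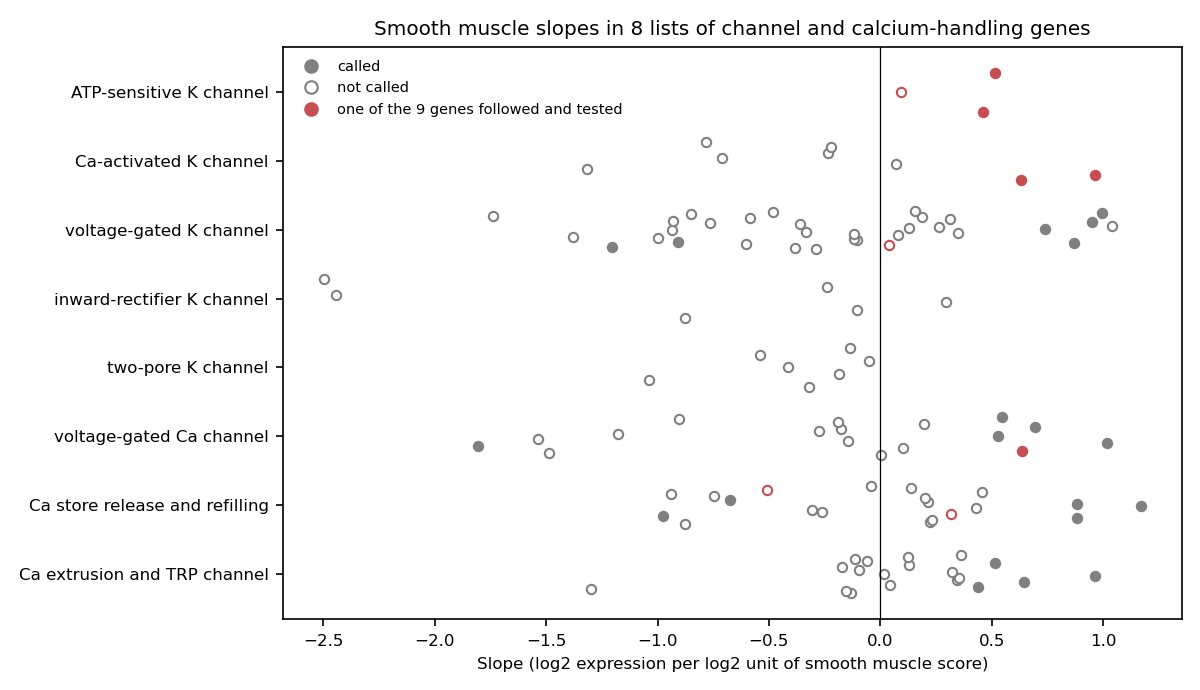
Smooth muscle slopes (log2 expression per log2 unit of score) of 112 tested genes in 8 channel and calcium-handling lists; each point is a gene, filled where the adjusted p is under 0.05, and red marks the 9 tested genes of the 10 followed here. Of the filled points 20 lie right of 0 and 5 left of it, and both inward rectifier and tandem-pore lists have 0 filled points.

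The tested genes whose log2 CPM was most like that of each channel gene were read over the 13 aortas, as a description with no test, the points sharing libraries. Kcnmb1 was closest to Pawr, Lhfp and Msrb3 (r = 0.98 for each), whereas the median r over all genes was -0.02. Abcc9 was closest to Gabra3 (0.98), Fmo2 (0.97) and Foxp2 (0.97), Kcnma1 to Kalrn (0.97), Ncam1 (0.97) and Foxc1 (0.96), and Cacna1c to Syne1 (0.96), Arhgef7 (0.95) and Fat4 (0.95). Kcnj8 was closest to Nrtn (0.93), Cdc42ep5 (0.93) and Artn (0.92). Kcnj11 was closest to Rasd1 (0.91) and Frat1 (0.88), Itpr1 to Itpkc (0.90), Itga1 (0.90) and Rassf8 (0.89), Kcna5 to Rabl6 (0.88), Dis3l (0.84) and Tsacc (0.84), and Ryr3 to Gemin8 (0.87), Supt4b (0.83) and Nsun2 (0.83). Among the channel genes themselves, Abcc9, Kcnma1, Kcnmb1 and Cacna1c were paired at r of 0.81 to 0.87, whereas Kcnj8 and Abcc9, the partners of 1 channel and neighbours in the genome, had r = 0.40. Kcnj11 had r = 0.47 with Kcnj8 and between -0.22 and 0.10 with the other 7.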

How the data were processed

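Bulk RNA-seq of 13 mouse aortas (6 Ad-sham, 7 Ad-FAM3A) was read from 2 deposited tables. Per the methods, the authors aligned reads to GRCm38 with Hisat2 and counted reads per gene with FeatureCounts; the deposited counts are raw, 1 column per aorta. The deposited FPKM table holds 1 value per virus group, scaled by the authors. The annotation release, strand setting and treatment of multi-mapped reads are not given in the sources used here. The labels name one extraction and library kit and the methods name others. The 10 genes, marker lists and channel lists were chosen with earlier results of these data known. Whether the aortas of a group came from separate batches is not given, so p-values measure the spread between these aortas.

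CPM of the channel genes and markers was computed from counts and TMM-normalised library sizes, and FPKM per aorta from that CPM and the deposited gene length. CPM of Fam3a and Apoe used raw library totals. Genes were filtered with filterByExpr, normalised by TMM and tested with edgeR 4.0.16 (R 4.3.3) by the quasi-likelihood F test, with Benjamini-Hochberg adjustment over 15811 genes and a call at an adjusted p under 0.05. SE is the absolute log2 estimate over the square root of F, and 95% intervals are 1.96 SE, which with few residual degrees of freedom is narrower than the test allows. Marker scores are the mean log2 CPM (prior count 2) of a list with at least 3 tested genes (14 of 16 lists). Slopes were fitted with the virus group as covariate. Permutation tests were two-sided with 100000 resamples (scipy). Named genes were the 10 genes, the markers, channel-list genes called on the smooth muscle or adipocyte score or highest in mean FPKM of their list, and the 3 genes most alike to each, apart from a few that are not reported here. Depth of 14481179 to 19797407 counts limits the genes with few counts. Alternatives were DESeq2 1.42.0, limma-voom 3.58.1, other normalisations, filters and scores, a replicate block and each aorta left out. The fits were tested on simulated data.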

Additional observations from a re-analysis of the deposited data

Results flagged for a closer look

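Of 48 sets of values (the 10 channel genes and 14 marker scores, each within 1 virus group), 3 held an aorta far from the rest of its group by Dixon's criterion, where chance gives about 1 in 20, or 2.4. Kcnmb1 was low in Ad-FAM3A6, at a log2 CPM of 4.75 against 6.42 to 7.65 in the other Ad-FAM3A aortas. The cardiac muscle score was high in Ad-FAM3A6, at 5.05 against 0.73 to 1.98. The T cell score was high in Ad-sham4, at 3.25 against 0.63 to 1.34. Leaving out Ad-FAM3A6 gave Kcnmb1 a smooth muscle slope that was still called, and the part of heart muscle in its low Kcnmb1 was not tested.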

How the results depend on the processing

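The 5 smooth muscle slopes kept their direction in all 25 alternatives each. Of these 25, Kcnmb1 was called in 24, Cacna1c in 21, Kcnj8 in 20, Abcc9 in 19 and Kcnma1 in 18. Over the 25 alternatives the slope was 0.77 to 1.01 for Kcnmb1, 0.47 to 0.69 for Cacna1c and 0.44 to 0.58 for Kcnj8. For Abcc9 it was 0.27 to 0.71 and for Kcnma1 0.31 to 0.96. DESeq2 called 10 genes between the virus groups, 2955 on the smooth muscle score and 853 on the adipocyte score, against 0, 1894 and 253 with edgeR. On the adipocyte score 120 genes were called with no filter, 616 with at least 10 counts in every aorta, 890 with brown adipocyte markers, 833 with Adipoq alone and 455 with the smooth muscle score added. Without 1 aorta, 1 to 658 genes were called on the adipocyte score (1 without Ad-sham6, 658 without Ad-FAM3A1). Without 1 aorta, 476 to 1995 genes were called on the smooth muscle score, 1 to 6 of the 9 channel genes rose (1 without Ad-FAM3A6, 6 with Itpr1 called without Ad-FAM3A2) and 0 to 1 fell. Without Ad-sham1 and Ad-FAM3A6 together 126 genes and 1 channel gene were called, and with the cardiac score 838 and 1. With the replicate number as a block, 0 genes and 0 of the 9 were called on the smooth muscle score and 0 genes on the adipocyte score with edgeR, against 1817 and 1117 at an unadjusted p under 0.05. Whether a shared number marks a shared batch or pairing is not given in the sources used here. Same-numbered aortas correlated in their deviations from the group means at -0.33 to 0.45, and 1 of the 6 Ad-sham aortas correlated best with its own number. These correlations cannot decide it, since they also carry the tissue content of each aorta. Slopes that turned were small. On the smooth muscle score Kcna5 was -0.00135 with at least 10 counts in every aorta, -0.19 with the block, -0.04 without Ad-sham2 and -0.059 without Ad-FAM3A4 (-0.059 to 0.064 over the fits without 1 aorta), and Kcnj11 was -0.077 with the block, -0.03 without Ad-sham2 and -0.071 without Ad-FAM3A4 (-0.071 to 0.52). On the adipocyte score Ryr3 was -0.11 without Ad-sham1, -0.13 without Ad-sham6 (-0.13 to 0.39) and -0.20 with brown markers. Without the 2 farthest aortas r on the smooth muscle score was 0.021 for Kcnj11 and 0.0078 for Ryr3. The cause of these changes was not tested. Few counts limit Kcnj11, Abcc8 and Ryr3.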

Other observations

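On the brown adipocyte score, 1 of the 112 channel and calcium-handling genes tested was called, beside 5.08% of all genes rising and 0.550% falling, a smaller share than that of all genes rising. It was Kcnk3, a tandem-pore channel of resting potassium conductance (slope 0.63, SE 0.16, adjusted p = 0.0325 with edgeR). Its slope on the adipocyte score was 0.55 and on the smooth muscle score -0.05.

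Apoe transcripts were counted in the knockout aortas at 3.35 to 20.8 CPM in Ad-sham and 4.94 to 15.3 CPM in Ad-FAM3A. A count over the whole gene does not show whether a deleted part was read.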
